A study of Mus musculus with 2 samples.

Results

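Mir193a, Mir365-2, Mir193b and Mir365-1 are the 4 microRNA genes of a pair of paralogous clusters, and they were taken by gene symbol from the 2202 miRNA genes counted in the mouse adrenal gland. Mir193a and Mir365-2 lie together on chromosome 11, and Mir193b and Mir365-1 lie together on chromosome 16. Small RNA below 30 nucleotides was sequenced from the adrenal glands of female B6CASTF1/J mice aged 25 days, which are hybrids of the C57BL/6J and CAST/EiJ mouse strains. The labels give 1 group, with no treatment, and 2 libraries, called library 2 and library 1 after their biological replicate numbers. The animal numbers of the glands differ in the labels while the donor identifier is the same, so the spread between libraries may be technical.

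MicroRNAs are cut from hairpin precursors, and bases 2 to 8 of the mature strand, the seed, pair with the target messenger RNA. The chromosome 16 cluster is known from mouse brown fat, where its miRNAs were reported to promote the differentiation of brown adipocytes in culture. The miR-193 strands are also known as growth inhibitors that repress cyclin D1 in human cells. The adrenal gland lies in fat that in rodents can hold brown adipocytes, and its cortex makes steroid hormones while its medulla releases catecholamines.

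The mature sequences are shown because they set which reads could be assigned to which gene. All 4 genes were found by symbol in RefSeq (GRCm38.p6, the mm10 build), which lists 2 mature strands for each, 5′ to 3′, with the seed in capitals.
miR-193a-5p: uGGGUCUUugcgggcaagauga
miR-193a-3p: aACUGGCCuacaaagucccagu
miR-193b-5p: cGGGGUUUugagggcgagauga
miR-193b-3p: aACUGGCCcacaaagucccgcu
miR-365-2-5p: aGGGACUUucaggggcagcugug
miR-365-1-5p: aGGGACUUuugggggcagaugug
miR-365-3p (both Mir365-2 and Mir365-1): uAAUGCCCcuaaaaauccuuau

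The 3p strands of Mir193a and Mir193b share their seed with each other and with no other mature strand in that table. They differ at 3 of 22 bases, all outside the seed. Counted from 1 at the 5′ end, with the base of miR-193a-3p first, the differences are U9C, A20G and G21C. The 5p strands of these genes differ at 5 of 22 bases, 2 of them in the seed (U5G and C6U), so their seeds are not the same. The 5p strands of Mir365-2 and Mir365-1 share a seed and differ at 3 of 23 bases (C10U, A11G and C19A). The 3p strands of Mir365-2 and Mir365-1 are identical over all 22 bases.

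The identity of the miR-365 genes reaches beyond the mature 3p strand. Their hairpins are shown with the longest identical run in capitals.
Mir365-2: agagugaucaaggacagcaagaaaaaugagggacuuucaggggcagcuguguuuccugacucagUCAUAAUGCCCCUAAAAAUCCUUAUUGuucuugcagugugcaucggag
Mir365-1: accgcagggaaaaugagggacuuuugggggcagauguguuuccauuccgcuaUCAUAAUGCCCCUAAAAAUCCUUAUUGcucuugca
The run is 27 bases long, from 3 bases before to 2 bases after miR-365-3p. A read that lies wholly within it matches both chromosomes, and a read with several mapping positions enters no gene's count. The counts of Mir365-2 and Mir365-1 therefore leave out such reads, and they are uncertain as measures of miR-365. How many miR-365-3p reads were left out was not measured. Mir193a and Mir193b share no run of 20 bases with another of the 2202 miRNA genes, searched on both strands. Each of their mature strands was found in 1 gene only among the GENCODE M21 transcripts, and the rest of the genome was not searched.

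**Figure D1:**
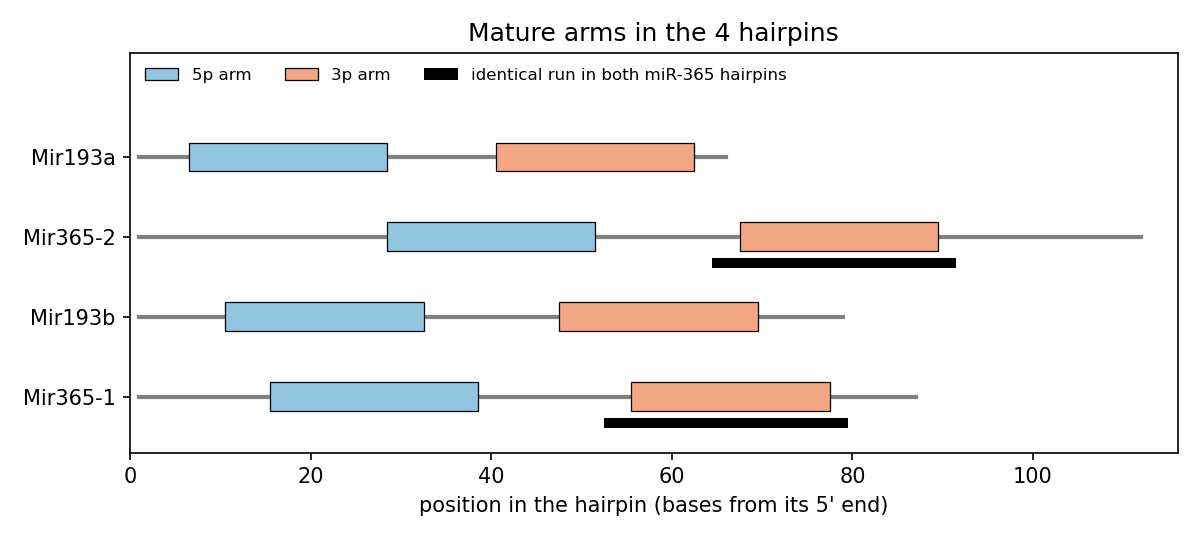
Map of the 4 hairpins, with the position in bases from the 5′ end on the x axis. Boxes are the mature 5p and 3p strands, and the black bar is the 27-base run that the miR-365 hairpins share, which covers the whole of miR-365-3p.

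In mm10 coordinates, Mir193a (ENSMUSG00000065395.1) spans chr11:79711969-79712034 and Mir365-2 (ENSMUSG00000065489.1) spans chr11:79726400-79726511, both on the plus strand. The hairpins lie 14.37 kb apart, and neither overlaps another annotated gene of GENCODE M21. Mir193b (ENSMUSG00000076972.2) spans chr16:13449523-13449601 and Mir365-1 (ENSMUSG00000065449.1) spans chr16:13453840-13453926, also on the plus strand and 4.24 kb apart. Both lie within Gm15738, a noncoding gene annotated on the minus strand from base 13354374 to base 13468755. No read was counted on the minus strand at any of the 4 genes, and a count of 0 allows up to 3 reads. The unstranded and stranded counts of each gene were equal in both libraries.

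Counts on the strand of a miRNA gene came to 3912280 of 11132685 reads (35.1%) in library 2 and to 2244073 of 7938596 reads (28.3%) in library 1. Reads mapped to several places made up 27.5% of library 2 and 28.4% of library 1. Of the cell type markers, the neuroendocrine genes, led by the endocrine miRNA Mir375, held 4.25% of the miRNA reads in library 2 and 4.18% in library 1. The endothelial gene Mir126a held 12.1% and 5.38%, the erythroid genes 2.57% and 0.068%, and the hepatocyte gene Mir122 0.0491% and 0.518%, in library 2 and library 1 in that order. In the same order, the smooth muscle and fibroblast genes held 4.18% and 2.89%, the leukocyte genes 0.0913% and 0.109%, and the genes of epithelium and kidney 0.0126% and 0.0168%. These sums hide genes that went the other way. Of the erythroid genes, Mir451a had 94842 and 1078 reads, but Mir486 had 86 and 107. Of the leukocyte genes, Mir142 had 1319 and 446 reads, but Mir223 had 98 and 260. The smooth muscle and fibroblast sum was led by Mir143, while Mir214, with 1756 and 1752 reads, held a smaller share of library 2. The neuroendocrine sum was nearly level as Mir375 was, while the other genes of that list held larger shares of library 2. They were Mir7b (21687 and 8799 reads), Mir7-1 (1312 and 587) and Mir7-2 (407 and 103). The 9 striated muscle genes had 13 reads in each library, with 6 genes at 0 in both. Among those at 0, Mir133a-1, Mir133a-2 and Mir133b share runs of 20 bases with each other. Reads within such runs enter no count, so these zeros are uncertain. Marker genes outside the list of fat-linked miRNAs below were not searched for such runs, Mir486 among them. Their counts and shares may therefore lack reads as well.

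The miR-193 genes were counted at intermediate levels and the miR-365 genes at low ones. Levels are CPM, a gene's reads scaled to 1000000 reads on the strand of miRNA genes. Reads were taken to be whole mature strands, so CPM were not divided by gene length. The lengths and positions of the reads were not examined. All 4 genes were among the 337 detected genes, those with 10 or more reads in each library, and Mir365-1 only just so. Together they held 0.0549% of the miRNA reads in library 2 and 0.0706% in library 1.

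Mir193a had 1314 reads in library 2 and 1060 in library 1, which are 336 CPM (95% exact Poisson interval 318 to 355) and 472 CPM (444 to 502). Library 2 was the lower, and these intervals do not overlap. Mir193b had 743 reads in library 2 and 455 in library 1, which are 190.0 CPM (177 to 204) and 203 CPM (185 to 222). The intervals of Mir193b overlap. The mean level was 404 ± 96.5 CPM for Mir193a and 196 ± 9.08 CPM for Mir193b (SD, n = 2), which placed them 117th and 157th among all miRNA genes.

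Mir365-2 had 67 reads in library 2 and 60 in library 1, which are 17.1 CPM (13.3 to 21.7) and 26.7 CPM (20.4 to 34.4). Library 2 was again the lower, with intervals that overlap. Mir365-1 had 22 reads in library 2 and 10 in library 1, which are 5.62 CPM (3.52 to 8.51) and 4.46 CPM (2.14 to 8.2). It was the one of the 4 genes with a higher CPM in library 2, with wide and overlapping intervals. The mean level was 21.9 ± 6.8 CPM for Mir365-2 and 5.04 ± 0.825 CPM for Mir365-1 (SD, n = 2), at ranks 263 and 330. These intervals cover counting error only, and without molecular identifiers PCR copies of the same molecule were counted again.

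The order of the CPM levels was Mir193a, Mir193b, Mir365-2 and Mir365-1 in both libraries. In both libraries, the Poisson intervals of neighbours in this order did not overlap.

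**Figure D2:**
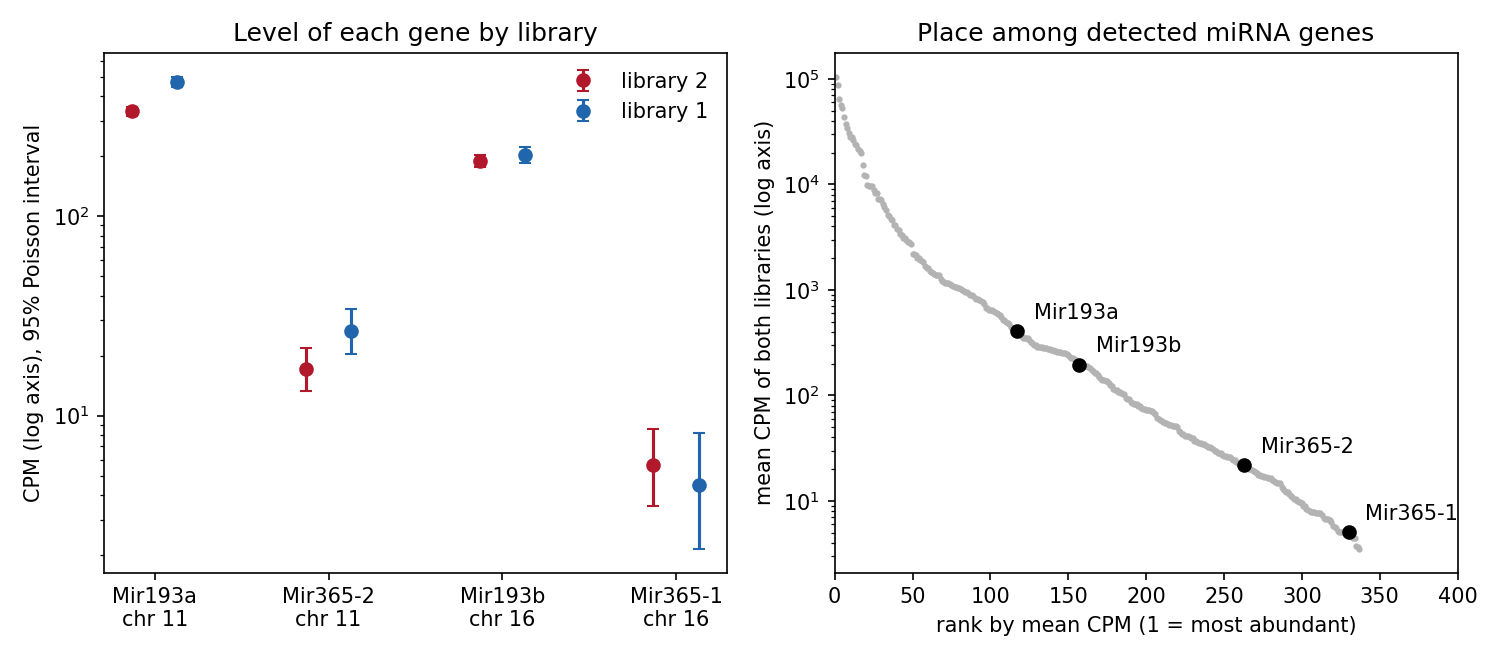
Left, the level of each gene in CPM on a log axis, with points for library 2 and library 1 and bars for 95% exact Poisson intervals. Right, the mean CPM of the 337 detected genes in grey on a log axis against their rank, with the 4 genes in black. Mir193a and Mir193b sit at 404 and 196 CPM, and Mir365-2 and Mir365-1 at 21.9 and 5.04 CPM.

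The libraries were compared gene by gene to see which of the 4 genes differed between them. Only Mir193a passed the test. It was lower in library 2, with a log2 ratio of library 2 over library 1 of -0.41 (95% interval -0.52 to -0.29), or 1.33-fold higher in library 1. The two-sided exact binomial test with edgeR's TMM scaling gave an adjusted p of 4.82e-11, adjusted over the 411 genes with 10 or more reads summed. This test compares the 2 libraries and not conditions. It called 240 of the 411 genes (58.4%), and 119 of the 411 (29%) were called lower in library 2. With only 4 genes, 1 called gene cannot be told apart from either background share. With this scaling none of the 4 reached a fold of 1.5, while 129 genes (31.4%) both passed the test and reached that fold. Mir365-2 came closest, at 1.47-fold higher in library 1.

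Mir365-2 did not pass, at a log2 ratio of -0.56 (95% interval -1.08 to -0.03) and an adjusted p of 0.0582 in the exact binomial test. It passed with scaling by library size alone, with a log2 ratio of -0.64 and an adjusted p of 0.0233 in that test. At that scaling it also exceeded a fold of 1.5. Mir193b, with a log2 ratio of -0.01 (95% interval -0.18 to 0.16), had an adjusted p of 0.969 in the same exact test. Its interval leaves out changes as large as that of Mir193a. For Mir365-1 the log2 ratio was 0.38 (95% interval -0.72 to 1.66, adjusted p = 0.584, exact binomial test). Its 32 reads in all leave room in that interval for changes of 1.5-fold in either direction.

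The difference at Mir193a was smaller than that of most genes. Of the 411 genes tested, 239 (58.2%) had a larger log2 ratio in absolute size, and the median absolute log2 ratio was 0.5. When the spread between libraries over all genes was allowed for, with edgeR's negative binomial exact test at a biological coefficient of variation of 0.387, the adjusted p of each of the 4 genes was 1. That spread was estimated from the same libraries that the test compares, so a gene with a difference of usual size could hardly pass. Despite its name, the coefficient may hold technical spread. The negative binomial test called 5 of the 411 genes (1.22%), and 12 had an unadjusted p under 0.05. The endothelial, erythroid and hepatocyte markers above differed between the same libraries by more than these genes did. The counted reads of the erythroid genes did not all go the same way. The part of these markers in the result was not tested. In whole tissue, fewer cells of a type and less miRNA per cell cannot be told apart.

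**Figure D3:**
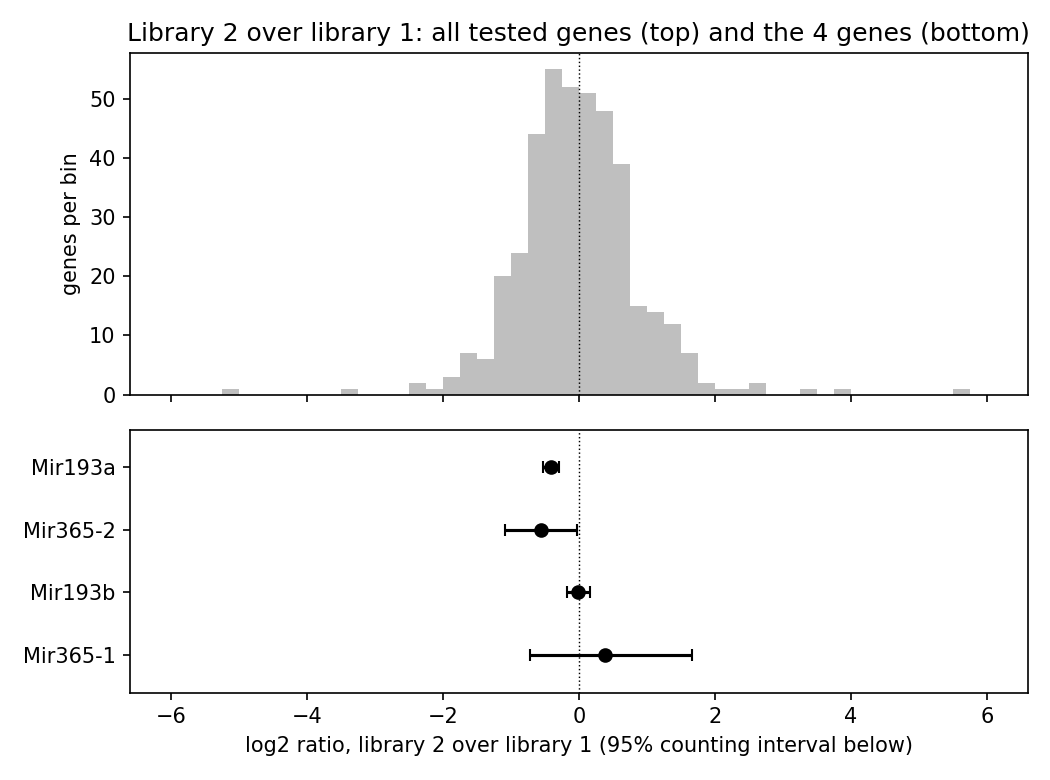
Log2 ratio of library 2 over library 1 on the x axis, for all 411 tested genes as a histogram (top) and for the 4 genes as points with 95% counting intervals (bottom). Mir193a (-0.41) and Mir365-2 (-0.56) of chromosome 11 lie left of 0, Mir193b (-0.01) lies at 0, and the wide interval of Mir365-1 spans 0.

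The chromosome 11 pair was set against the chromosome 16 pair within each library, where scaling plays no part. More of the counted reads lay on chromosome 11 in both libraries. Reads within the run that the miR-365 genes share are in neither sum, and their chromosome is not known. Summed over Mir193a and Mir365-2, the chromosome 11 pair had 1381 reads in library 2, against 765 for the chromosome 16 pair, a ratio of 1.81 (95% exact interval 1.65 to 1.97). In library 1 the chromosome 11 pair had 1120 reads, against 465 for the chromosome 16 pair, a ratio of 2.41 (2.16 to 2.69). The mean log2 ratio of chromosome 11 over chromosome 16 was 1.06 ± 0.29 (SD, n = 2).

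This ratio of counted reads is nearly all miR-193. Mir193a made up 63.9% of the reads of both miR-193 genes in library 2 (95% exact Clopper-Pearson interval 61.8 to 66.0%) and 70.0% in library 1 (67.6 to 72.3%). Mir193a thus had 1.77 times the reads of Mir193b in library 2 and 2.33 times in library 1. Mir365-2 made up 75.3% of the reads counted for both miR-365 genes in library 2 (65.0 to 83.8%) and 85.7% in library 1 (75.3 to 92.9%). Its ratio to Mir365-1 was 3.05 in library 2 (1.86 to 5.18) and 6.0 in library 1 (3.05 to 13.1), without the reads of the shared 3p strand. Different sequences are captured with different efficiency in library preparation, so these are ratios of reads.

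Within each chromosome the miR-193 gene had many times the reads of the miR-365 gene. On chromosome 11, Mir193a had 19.6 times the reads of Mir365-2 in library 2 (95% exact interval 15.3 to 25.5) and 17.7 times in library 1 (13.6 to 23.3). On chromosome 16, Mir193b had 33.8 times the reads of Mir365-1 in library 2 (22.1 to 54.2) and 45.5 times in library 1 (24.5 to 95.5). The miR-365 side of both ratios lacks the reads of the 27-base run shown above.

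Whether the genes kept their proportions between the libraries was tested for 4 pairs with two-sided Fisher's exact tests on reads, adjusted over the 4. The proportion of Mir193a to Mir193b differed, with an odds ratio of library 2 over library 1 of 0.759 (95% interval 0.657 to 0.877, adjusted p = 0.000575, raw p = 0.000144, exact test). For Mir365-2 and Mir365-1 the odds ratio was 0.51 (0.199 to 1.23, adjusted p = 0.23, exact test). Neighbours on the same chromosome gave odds ratios nearer 1 or with wide intervals. Mir193a and Mir365-2 had 1.11 (0.763 to 1.61), and Mir193b and Mir365-1 had 0.742 (0.311 to 1.65), both with an adjusted p of 0.584 in the exact test. A p that misses the threshold does not show that the neighbours moved together, and these tests cover counting error only.

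**Figure D4:**
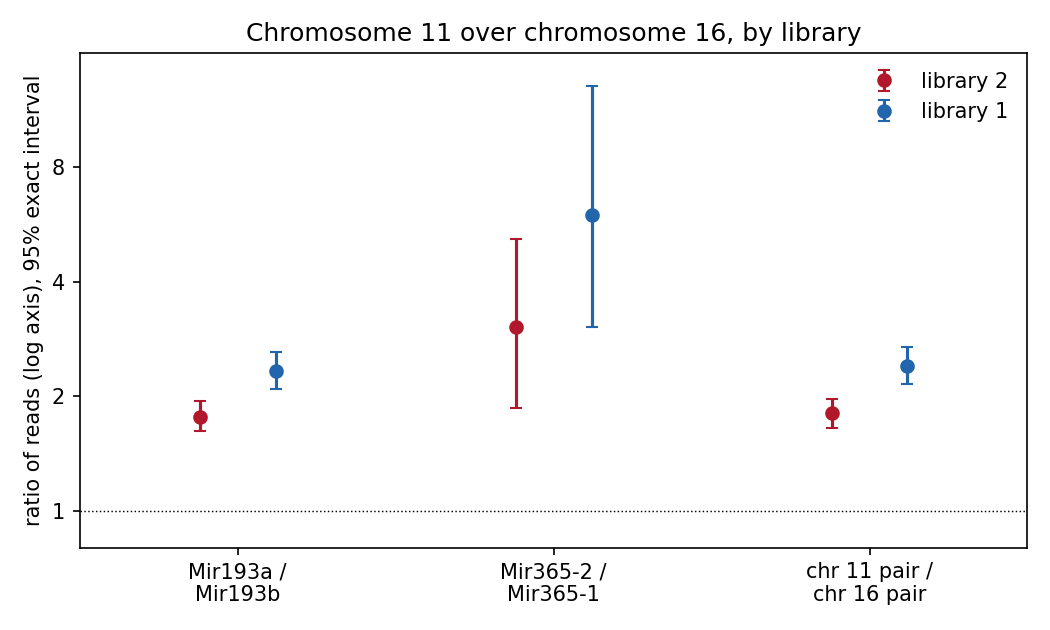
Ratio of reads of the chromosome 11 gene or pair over its chromosome 16 counterpart on a log axis, in library 2 and library 1, with 95% exact intervals. Reads within the run that the miR-365 genes share are left out. Each point lies above 1, and the ratio of Mir193a to Mir193b is 1.77 in library 2 and 2.33 in library 1.

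The genes nearest to each member by level, measured as the Euclidean distance of log2 CPM plus 1 over the 2 libraries, all lay on another chromosome than the member. For Mir193a they were Mir540 (292 CPM in library 2 and 473 CPM in library 1) and Mir330 (392 and 475 CPM), at distances of 0.202 and 0.222. For Mir193b they were Mir30c-1 (184 and 201 CPM) and Mir3102 (184 and 213 CPM), at 0.0469 and 0.085. Mir365-2 lay nearest to Mir292 and Gm23450, and Mir365-1 nearest to Mir3065 and Mir491. Of these 8 genes, Mir30c-1, Mir292 and Mir3065 share a run of 20 bases, on either strand, with another miRNA gene. Their counts are uncertain, as they may lack reads within that run. With 2 libraries this likeness is mostly one of level.

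Other miRNAs linked in the literature to brown fat, beige fat or adipocyte formation were read as a list of 34 genes, none of them specific to fat. The list held 12.6% of the miRNA reads in library 2 and 13% in library 1, far above the 4 genes. Of its 34 genes, 30 were detected, and 3, the muscle genes Mir133a-1, Mir133a-2 and Mir133b, were at 0 in both libraries. Of the 34, 19 have 20 bases in a row in common with another miRNA gene, among them the Mir133 genes, Mir378a, Mir27b, Mir107, Mir103-2, Mir129-2, Mir26a-2 and Mir196a-1. Their counts are uncertain, since reads wholly within such a run would enter no count. Whether the runs cover whole mature strands, as in the miR-365 genes, was not examined. Mir378a, which lies in the mitochondrial regulator gene Ppargc1b, led the list by the mean of both libraries, with 39631 CPM in library 2 and 48306 CPM in library 1. Mir143, which marks smooth muscle and fibroblasts, had 40553 and 27293 CPM and so lay above Mir378a in library 2. Mir26b had 19728 and 27071 CPM and Mir27b 3684 and 6545 CPM, again library 2 before library 1.

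The list went both ways between the libraries. Of its 31 tested genes, 12 were higher in library 2, 13 were lower and 6 did not pass the exact binomial test, with a median log2 ratio of -0.04 against -0.07 over all 411 genes. Over all genes 58.4% were called, 29% lower in library 2, and 31.4% were called at 1.5-fold or more. At 1.5-fold or more, 8 were higher in library 2. They were Mir107 (log2 ratio 1.01), Mir129-2 (0.95), Mir34a (0.78), Mir103-2 (0.74), Mir32 (0.73), Mir130b (0.72), Mir30b (0.69) and Mir143 (0.66). At the same fold 6 were lower, namely Mir26a-2 (log2 ratio -5.03), Mir455 (-0.88), Mir27b (-0.74), Mir494 (-0.74), Mir196a-1 (-0.73) and Mir203 (-0.72). Mir455 and Mir203 were thus lower in library 2, as Mir193a was, while Mir30b, Mir32 and Mir182 (log2 ratio 0.49) were higher and Mir193b was nearly level. These are single genes of a list that went both ways, and they show no common direction. Whether fat on the glands had a part in any of these levels was not tested.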

How the data were processed

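Per the labels, small RNA below 30 nucleotides of 2 adrenal glands was sequenced, 1 library each. The authors deposited raw read counts per miRNA gene, not normalized and not pooled. Per the labels, the build is mm10, and a text deposited beside the counts gives GENCODE M21 as the annotation. Not given in the sources used here are the aligner, the counter and the trimming. The tables lack headers, and the meaning of their columns, unstranded followed by 2 stranded, was inferred from their layout. The first stranded column gave the values.

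Rows that name no gene stayed out of library sizes. In library 2 and library 1 they held 27.8% and 33.8% unmapped reads and 9.53% and 9.57% outside miRNA genes. All 2202 identifiers matched GENCODE M21.

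Genes with at least 10 reads over both libraries entered a two-sided exact binomial test at edgeR 4.0.16 TMM effective library sizes (R 4.3.3), with Benjamini-Hochberg adjustment and a threshold of 0.05. No quasi-likelihood test was run, since a contrast of single libraries leaves no replicates from which to estimate its error. Log2 ratios had 0.5 read added to each count, and intervals are 95% exact ones, without that addition. The test was checked on simulated counts that had counting error only, so that check does not cover the spread between libraries. Alternatives were scaling by library size or DESeq2 1.42.0 size factors, no filter, the unstranded column, 1 read added and a negative binomial test. Sequences came from RefSeq tables read with Python 3.11.15.

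The 4 genes, the fat-linked list and the marker lists were chosen with earlier results of these data known. Named genes are the 4, the 2 detected genes nearest to each by level, and of the fat-linked list the 4 most abundant and those called at 1.5-fold. Mir182 was named after its values were seen, as were the genes at 0 and Mir451a, Mir486, Mir142, Mir223, Mir214, Mir7b, Mir7-1 and Mir7-2.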

Additional observations from a re-analysis of the deposited data

How the results depend on the processing

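No paired analysis was possible because both libraries belong to the same group. Of 50 alternative values, 43 kept their side of the threshold, or moved by less than the limit set for their kind. For mean levels and the chromosome ratio that limit was the SD between the libraries. Leaving out a library cannot move the mean of both beyond it, so those values were bound to be kept. Adding 1 read could not change the p of the exact binomial test. The 43 thus overstates how stable the results are. A change of sign between values that both missed the threshold, as at Mir193b, was counted as kept. With edgeR's negative binomial test the call of Mir193a was lost (log2 ratio -0.41, adjusted p = 1, where the other alternatives gave 1.1e-15 to 0.00026), and the count of called genes was 5 in place of 240. That test adds to counting error the spread between libraries, estimated over all genes from the same libraries that it compares. A difference of usual size, as at Mir193a, could hardly pass it. Mir365-2 passed with library size alone (log2 ratio -0.64, adjusted p = 0.0233), while its adjusted p over the other alternatives ran from 0.0582 to 1. Mir193b stayed outside the threshold in each alternative, with log2 ratios from -0.1 to 0.16, so its sign rests on the scaling. Without the filter, the log2 ratios moved up by a median of 0.17 over the genes tested. With the unstranded column the mean level was 238 CPM for Mir193b and 6.15 CPM for Mir365-1, since that library size leaves out reads set aside as ambiguous. Without the most abundant gene in the library size it was 219 CPM for Mir193b. The chromosome 11 over chromosome 16 log2 ratio was 2.10 with the miR-365 genes only and 1.02 with the miR-193 genes only, and without either library it ran from 0.85 to 1.27. Depth limits Mir365-1 most, at 22 and 10 reads.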
